A study of Homo sapiens with 7 samples.

Results

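Super-enhancers (SEs) are long stretches of chromatin in which several enhancer peaks lie close together and were joined, or stitched, into one element. The regions described here are those in which this joining came out differently: a stretch that at least 1 H3K27ac library listed as 2 or more separate SEs. The SE lists of 6 libraries were pooled, listed SEs (called rows below) that shared 1 bp or more on a chromosome were merged, and a merged region was kept when a library held 2 or more rows in it. This gave 199 regions of 1784 merged regions (11.2%), and they held 1763 of the 7472 listed rows (23.6%). The regions were chosen by the number of rows per library, so that number is described and not tested.

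The libraries came from HepG2, a human liver cancer cell line, treated with TM (tunicamycin, 3 libraries) or with DMSO (the solvent, 3 libraries). Both groups are the same line, and the labels give no dose, no time and no statement that replicates were separate cultures, so each p-value measures only the spread between these libraries, which may be technical. An input library of control cells was not analysed here. The lists held 1130, 1507 and 1253 rows in TM 1, 2 and 3, against 1132, 1290 and 1160 rows in DMSO 1, 2 and 3. Read depth is unknown, since the files give a signal and no read counts. Of 24 hepatocyte marker genes, 2 were linked to a row in each TM library (CPS1 and ONECUT2), against 5, 5 and 6 in DMSO 1, 2 and 3. ALB, APOA1 and AFP, defining products of this line, were linked to no row in any library. Of 12 markers of other liver cells, TM libraries linked 0, 2 and 1 (KRT7 and PTPRC), and each DMSO library linked 1 (LUM).

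H3K27ac, acetylation of lysine 27 on histone H3, marks active enhancers and promoters. Dense clusters of such enhancers often lie at genes that set the identity or state of a cell, and cancer cells acquire them at growth-promoting genes. Tunicamycin blocks N-linked glycosylation, which loads the endoplasmic reticulum with unfolded proteins and starts the unfolded protein response, a program of transcription factors that reshapes which enhancers are active. Stitching joins neighbouring peaks up to a set distance, so a row ends where the next peak of that library is too far away, and a stitched element whose signal is below the library's SE threshold is not listed at all. A break is the stretch between consecutive rows of a library in a merged region, and the shortest of them was 12.5 kb.

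Each row carries a gene, the one whose promoter is nearest to the row's midpoint. The genes below are named by that link, which is a position and not a measured target. A region is called by the gene of its strongest row, and coordinates are given as deposited, because their build is not given in the sources used here. They do not match the GRCh38.p14 coordinates of the promoters below. The linked start of WNT2 lies at 116963343 as deposited, and its GRCh38.p14 promoter at 117323009 to 117323308. For 4 genes the promoter is shown, since the result turns on where a break falls relative to the gene: WNT2 has its linked start site inside a break of every TM library, ARID5B inside a break of DMSO 2 alone, SLC9A8 was linked in TM libraries only, and PAX8 in DMSO libraries only. The sequences are RefSeq promoters of GRCh38.p14, from 250 bases before to 50 bases after the start, written 5′ to 3′ on the gene's strand. Capitals mark a match to the CCAAT box (CCAAT), the AP-1 site (TGANTCA), the C/EBP-ATF site (TGATGNAA) or the cyclic AMP response element (TGACGTCA), each searched on both strands.
WNT2, chr7:117323009-117323308, minus strand: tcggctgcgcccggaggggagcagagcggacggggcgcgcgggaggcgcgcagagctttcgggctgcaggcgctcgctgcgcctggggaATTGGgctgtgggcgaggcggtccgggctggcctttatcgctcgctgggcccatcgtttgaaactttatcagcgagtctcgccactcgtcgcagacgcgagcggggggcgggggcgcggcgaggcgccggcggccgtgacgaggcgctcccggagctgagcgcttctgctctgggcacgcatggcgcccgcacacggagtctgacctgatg
ARID5B, chr10:61901449-61901748, plus strand: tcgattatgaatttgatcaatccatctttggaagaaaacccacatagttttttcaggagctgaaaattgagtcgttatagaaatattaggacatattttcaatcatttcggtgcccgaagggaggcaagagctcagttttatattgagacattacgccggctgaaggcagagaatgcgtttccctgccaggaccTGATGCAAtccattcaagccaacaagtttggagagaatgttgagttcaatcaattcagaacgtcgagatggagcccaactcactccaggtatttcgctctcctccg
SLC9A8, chr20:49812578-49812877, plus strand: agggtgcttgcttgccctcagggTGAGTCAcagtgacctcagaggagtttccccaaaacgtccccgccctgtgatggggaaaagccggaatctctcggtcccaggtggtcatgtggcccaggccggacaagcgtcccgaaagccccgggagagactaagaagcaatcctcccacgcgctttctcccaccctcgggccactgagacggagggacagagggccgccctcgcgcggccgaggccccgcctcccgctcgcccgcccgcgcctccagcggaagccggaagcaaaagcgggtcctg
PAX8, chr2:113278872-113279171, minus strand: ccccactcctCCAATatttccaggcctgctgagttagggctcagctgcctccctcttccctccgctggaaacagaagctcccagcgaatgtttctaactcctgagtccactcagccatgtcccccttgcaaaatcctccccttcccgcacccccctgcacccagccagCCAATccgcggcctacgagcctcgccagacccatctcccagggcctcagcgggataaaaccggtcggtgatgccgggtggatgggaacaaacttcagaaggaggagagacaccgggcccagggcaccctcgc
The WNT2 promoter held 1 CCAAT box on the opposite strand, 161 bases before the start. PAX8 held 2 CCAAT boxes, 240 and 82 bases before the start, SLC9A8 held an AP-1 site 227 bases before it, and ARID5B held a C/EBP-ATF site 56 bases before it. Of all 35116 RefSeq promoters of this length, 34.6% held a CCAAT box, 7.71% an AP-1 site, 3.62% a C/EBP-ATF site and 1.85% a cyclic AMP response element. ARID5B has 2 starts in RefSeq, 148 kb apart as in the files, and the one shown is the one in the DMSO 2 break. A match describes the letters and shows no binding.

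TM libraries more often listed these regions in pieces. TM 1, 2 and 3 split 100, 111 and 126 of them, against 56, 101 and 41 in DMSO 1, 2 and 3. The means were 112 ± 13.1 in TM and 66 ± 31.2 in DMSO (SD, n = 3 each), a difference of 46.3 regions. The groups overlapped at 1 point, because DMSO 2 split 1 region more than TM 1. As a share of all regions a library listed, 9.90%, 8.07% and 11.4% were split in TM 1, 2 and 3, against 5.21%, 8.60% and 3.67% in DMSO 1, 2 and 3.

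The other state of a region was to be joined, that is listed as exactly 1 row. TM libraries joined 79, 80 and 62 of the regions and left 20, 8 and 11 unlisted, whereas DMSO libraries joined 142, 95 and 156 and left 1, 3 and 2 unlisted. More TM than DMSO libraries split 124 regions (62.3%), more DMSO than TM libraries split 47 (23.6%), and 28 were even. A split in 1 library alone accounted for 52 regions, with 13 each from TM 1 and DMSO 2, and 9 regions were split in all 6. DMSO 2 had the lowest SE threshold of the 6 lists, with a weakest row of 16747 tags, against 24793 in DMSO 1 and 24383 in DMSO 3. The weakest rows of TM 1, 2 and 3 had 18282, 26265 and 18884 tags. Scaling of the tags between libraries is not stated, and TM 2 also had the highest median row, of 41425 tags. The part of the threshold in the counts was not tested. With the same number of strongest rows taken from every library (chosen after seeing the data) the difference was 39.7 regions.

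**Figure D1:**
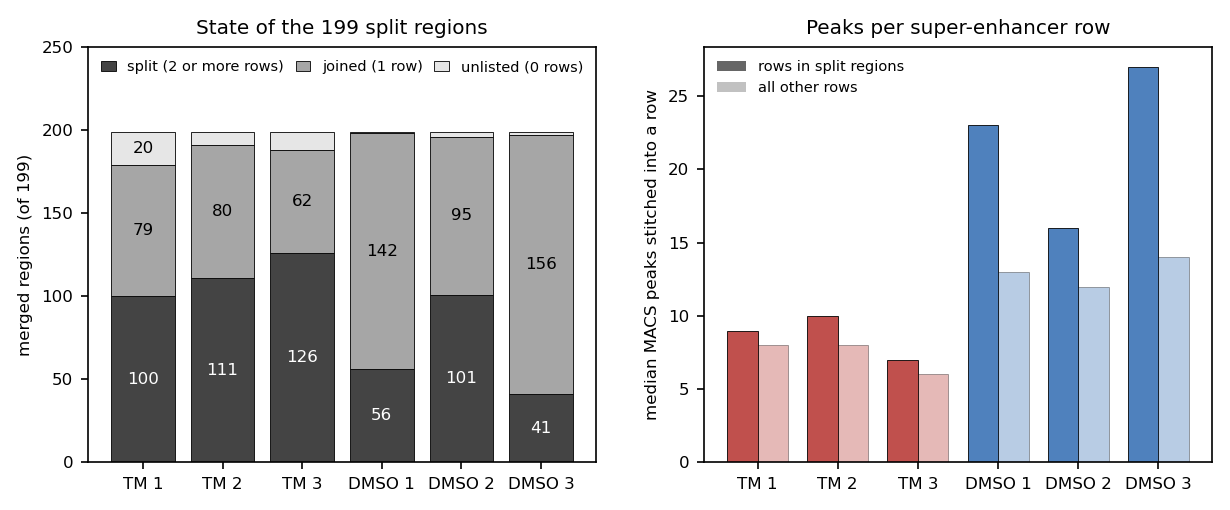
Left, the 199 regions by their state in each library (split, joined or unlisted, in regions); right, the median number of MACS peaks stitched into a row, for rows in these regions and for all other rows. TM libraries split 100 to 126 regions and DMSO libraries 41 to 101, and rows in these regions held 7 to 10 peaks in TM and 16 to 27 in DMSO. Peaks per row also fall where a region is cut into more rows.

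Rows inside the split regions were shorter and held fewer peaks in TM. A region cut into more rows has shorter rows with fewer peaks each, so these medians partly restate the number of rows. That number averaged 1.67, 1.69 and 1.78 per listed region in TM 1, 2 and 3, against 1.29, 1.59 and 1.22 in DMSO 1, 2 and 3. A row joined a median of 9, 10 and 7 MACS peaks in TM 1, 2 and 3, against 23, 16 and 27 in DMSO 1, 2 and 3, and the groups did not overlap. Outside these regions the medians were 8, 8 and 6 peaks in TM and 13, 12 and 14 in DMSO. The median row in a split region was 47.0, 57.3 and 41.6 kb long in TM 1, 2 and 3, against 106, 65.7 and 117 kb in DMSO 1, 2 and 3. Rows outside these regions were also shorter in TM, with medians of 39.2, 41.5 and 36.6 kb, against 58.3, 48.3 and 60.0 kb in DMSO. Peaks were also sparser along the rows, with 2.01, 1.86 and 1.72 peaks per 10 kb in TM against 2.36, 2.53 and 2.47 in DMSO.

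The merged regions themselves were long. Their median width was 159 kb (57.7 to 664 kb), against 55.7 kb for the 1585 regions that no library split. A kept region must hold 2 rows and a break, so more width follows in part from the rule. Among regions listed in all 6 libraries the median widths were 167 kb for split regions and 71.3 kb for the others. Rows linked to 2 or more genes across libraries in 130 of the 199 (65.3%), against 11.8% of the others. For regions listed in all 6 libraries the shares were 66.3% and 17.8%, and more rows also give more chances of a second link. By midpoint, 61.4% of their rows were intronic, 33.1% intergenic and 1.13% at a promoter. Of rows in regions that were not split, 56.2%, 36.4% and 2.77% had these positions. Rows with a midpoint within 5 kb of a start site made up 10.8% of those in split regions, against 18.7%. At most 2 rows per library were found in 168 regions, 3 or more in 31 and 4 or more in 5.

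The clearest difference between the groups was in 17 regions that all 3 TM libraries split and all 3 DMSO libraries joined (0.953% of the 1784 merged regions). Among their linked genes were SLC38A4-AS1, LINC01485, GRAMD2B, SEMA3C, JAZF1-AS1, MKLN1, SMAD3, B4GALT5, LINC00243, SRGAP1, SCIRT, GNG12-AS1, DAAM1, BASP1, STK17A and KANK1. They lay on chromosomes 1, 5, 6, 7, 9, 12, 14, 15 and 20 and were 111 to 259 kb wide. The reverse, 3 of 3 DMSO libraries split and 3 of 3 TM libraries joined, was found in 4 regions (0.224%), at LOC101928663, PAX8-AS1, ZNF366 and LPIN2. Without TM 1 the first count was 30 and without DMSO 2 it was 28, but with fewer libraries the rule is easier to meet. Closing every break under 25 kb left 11 and 0 of such regions. Dropping every row under the highest of the 6 thresholds left 8 and 2.

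SLC38A4-AS1, an antisense transcript of an amino acid transporter gene, gave the most pieces among the 17 (chromosome 12, 46736371 to 46985167). TM 1, 2 and 3 listed 4, 3 and 4 rows with 23, 16 and 14 peaks, against 1 row with 36, 48 and 47 peaks in DMSO 1, 2 and 3. The rows covered 113, 144 and 117 kb in TM and 201, 236 and 227 kb in DMSO. A break of 47.1 kb common to all 3 TM libraries, and another of 11.8 kb, lay where each DMSO library was continuous, and TM 2 lacked the break between them. The summed signal was 132501, 272231 and 167437 tags in TM 1, 2 and 3, against 233132, 180546 and 237762 in DMSO, and the groups overlapped as deposited. After centring on library medians, a step explained with the tests below, it fell by 0.23 ± 0.07 on the log2 scale (SE, limma, adjusted p = 0.0434). TM 2 had the highest signal of the 6 libraries as deposited.

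SEMA3C encodes a secreted semaphorin and CD36 a fatty acid receptor, and a region linked to both (chromosome 7, 80326131 to 80573393) was divided into rows linked to each. TM 1, 2 and 3 listed 2, 3 and 2 rows with 16, 28 and 15 peaks, against 1 row with 62, 59 and 64 peaks in each DMSO library. The break in TM 1 was 112 kb wide and the break in TM 3 was 110 kb wide, while TM 2 kept a row of 34.5 kb inside that stretch. CD36 was linked in the 3 TM libraries alone, and SEMA3C in all 6. Peak number fell by 0.91 ± 0.20 (log2, limma, adjusted p = 0.0306) and summed signal by 0.87 ± 0.20 (adjusted p = 0.0188).

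B4GALT5, a Golgi galactosyltransferase, and SLC9A8, a sodium-proton exchanger, shared a region that TM divided between them (chromosome 20, 48247724 to 48463501). The TM libraries listed 2 rows each, of 66.8 and 32.3 kb in TM 1, 67.0 and 61.2 kb in TM 2, and 78.3 and 30.8 kb in TM 3. The DMSO libraries listed 1 row each, of 175, 188 and 216 kb. All 3 TM breaks shared 34.5 kb, the row on the far side was linked to SLC9A8, and every DMSO row spanned it. Total signal was 69361, 118860 and 76647 tags in TM and 126306, 100867 and 138450 tags in DMSO. Only TM 2 reached into the DMSO range, and the centred signal fell by 0.49 ± 0.08 (log2, limma, adjusted p = 0.00422).

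LINC00243 lies by IER3, an immediate early gene induced by stress, and IER3 was linked in the 3 TM libraries alone. Peaks there numbered 19, 16 and 13 in TM 1, 2 and 3 and 29, 29 and 36 in DMSO, over a common TM break of 15.3 kb. GNG12-AS1 lies by GADD45A, a growth arrest and DNA damage gene with the same pattern of links. That region had 2, 3 and 2 rows in TM and no break common to all 3, because TM 1 broke at one site, TM 3 at another and TM 2 at both.

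SMAD3, which carries TGF-beta signals to the nucleus, had its break inside rows linked to SMAD3 on both sides. TM 1, 2 and 3 listed 2 rows each with 30, 19 and 16 peaks, against 1 row with 45, 38 and 49 peaks in DMSO, and the 3 TM breaks shared 13.8 kb. The density of SMAD3, its summed signal over its listed length, was 0.687, 1.07 and 0.832 tags per bp in TM, against 0.756, 0.685 and 0.746 in DMSO, and TM 1 lay within the DMSO range. Its centred density change was -0.16 ± 0.10 (log2, limma, adjusted p = 0.30). DAAM1, a formin of Wnt signalling, and KANK1, an adhesion and cytoskeleton protein, also kept 1 linked gene on both sides.

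In other regions of the 17, CPEB4, which controls mRNA polyadenylation (LINC01485 region), and LINC-PINT, a noncoding RNA (MKLN1 region), were each linked in the 3 TM libraries alone. LINC02111 in the BASP1 region and LINC01512 in the SCIRT region had the same pattern. Of the 17, 9 were linked to 2 or more genes.

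The 4 regions split in DMSO alone were not the mirror image of the 17. PAX8-AS1, antisense to the developmental factor gene PAX8, had 1 TM row of 51.3, 24.0 and 23.9 kb in TM 1, 2 and 3, all at the left end (chromosome 2, 113956035 to 114128783). DMSO 1, 2 and 3 listed 2 rows each, 128, 158 and 159 kb in all, and the right row was linked to PAX8. No TM library listed anything at either of its break sites. Total signal was 55091, 50278 and 38309 tags in TM, against 143027, 119152 and 147611 in DMSO, without overlap. It fell by 1.51 ± 0.24 (log2, limma, adjusted p = 0.00422), and peak number fell by 1.51 ± 0.24 (adjusted p = 0.00737).

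LPIN2, a phosphatidate phosphatase of triglyceride synthesis, had the same form. TM 1, 2 and 3 held 1 row of 38.8, 58.0 and 22.9 kb, against 2 rows of 122, 145 and 121 kb in all in DMSO. Its linked start site lay inside the breaks of DMSO 2 and DMSO 3 and outside that of DMSO 1, and the TM rows covered the joined stretch of these breaks in part. Total signal was 21753, 46046 and 19043 tags in TM and 66444, 55526 and 63342 tags in DMSO, without overlap, and it fell by 1.20 ± 0.18 (log2, limma, adjusted p = 0.004). LOC101928663, by the actin regulator CARMIL1, had 7, 24 and 5 peaks in TM against 43, 43 and 54 in DMSO, and ZNF366, a zinc finger repressor, had 11, 31 and 13 against 38, 34 and 46. In these 2 regions TM 2 held a row of 178 and 162 kb, more than 2 times as long as in TM 1 and TM 3. All 4 regions had a lower centred total signal in TM (limma, adjusted p under the 0.05 threshold).

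**Figure D2:**
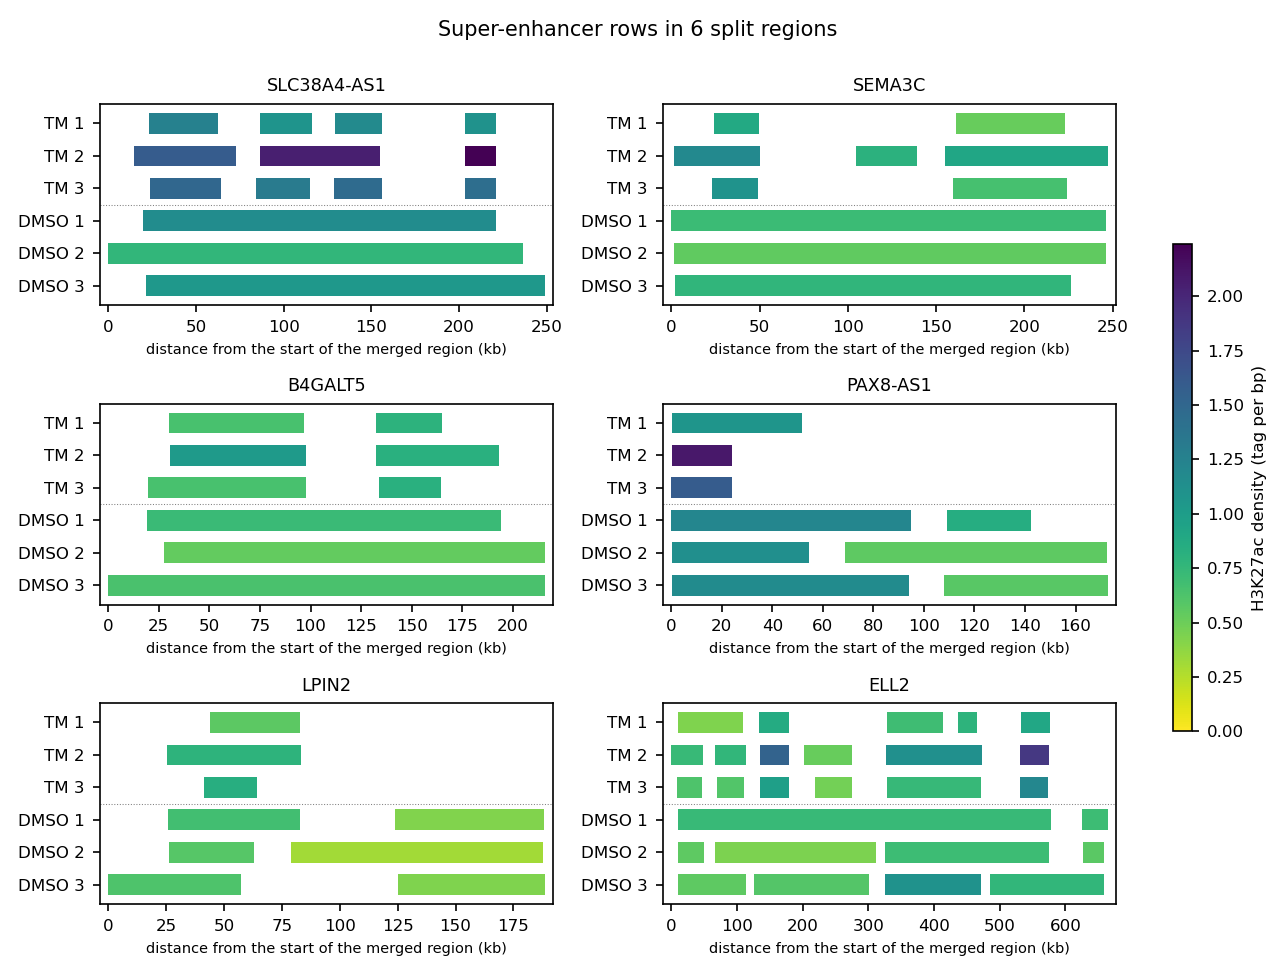
Rows of the 6 libraries in 6 regions, in kb from the start of the merged region, coloured by H3K27ac density in tags per bp. At SLC38A4-AS1, SEMA3C and B4GALT5 the TM rows leave gaps that every DMSO row covers, at PAX8-AS1 and LPIN2 the TM libraries hold 1 short row and DMSO 2, and ELL2 has 5, 6 and 6 rows in TM and 2, 4 and 4 in DMSO.

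Break sites, made by joining overlapping breaks of all libraries, numbered 245 from 614 breaks. A site was broken in TM libraries only at 105, in DMSO libraries only at 46 and in both groups at 94. Of the 105 TM-only sites, 73 (69.5%) were spanned by a row in all 3 DMSO libraries and 9 in none. Of the 46 DMSO-only sites, 3 (6.52%) were spanned in all 3 TM libraries and 33 (71.7%) in none. Counted by library, DMSO rows spanned the TM-only sites in 81.3% of 315 pairs of site and library, whereas TM rows spanned the DMSO-only sites in 15.2% of 138 pairs. In 43.5% of those 138 pairs the TM rows did not reach the site, and in 21.0% TM listed nothing in the region. Rows of other libraries must bridge a break for its region to be merged, so some spanning follows from the rule. The part of the rule in these shares was not tested.

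At 25 sites all 3 TM libraries and no DMSO library had a break, and every DMSO library spanned 21 of them. The reverse was found at 2 sites, at ZNF366, which TM 2 spanned, and at LPIN2, which no TM library spanned. DMSO 2 supplied 111 of the broken states and DMSO 1 and DMSO 3 supplied 56 and 43, against 119, 128 and 145 in TM 1, 2 and 3. One library alone broke 76 sites, and 5 sites held a break of all 6 libraries, at DDAH1, ARID5B, PSG5, LINC01447 and EGFR, with no stretch common to all 6 breaks at any of them.

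TM breaks were also wider. Their median was 21.6, 19.4 and 21.7 kb in TM 1, 2 and 3, against 15.3, 17.0 and 15.6 kb in DMSO 1, 2 and 3, without overlap. Under 25 kb were 56.7%, 68.2% and 56.5% of breaks in TM, against 80.7%, 71.3% and 90.7% in DMSO. The widest single breaks were 190 kb at ZZZ3 in TM 2, 190 kb at DDAH1 in TM 1 and 189 kb at DDAH1 in TM 3, followed by 150 kb at ELL2 in TM 1. DMSO breaks reached 66.5, 118 and 68.5 kb at most. ZZZ3 was unlisted in TM 1 and TM 3, so its break rests on 1 TM library, and DMSO 2 held 3 rows there.

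**Figure D3:**
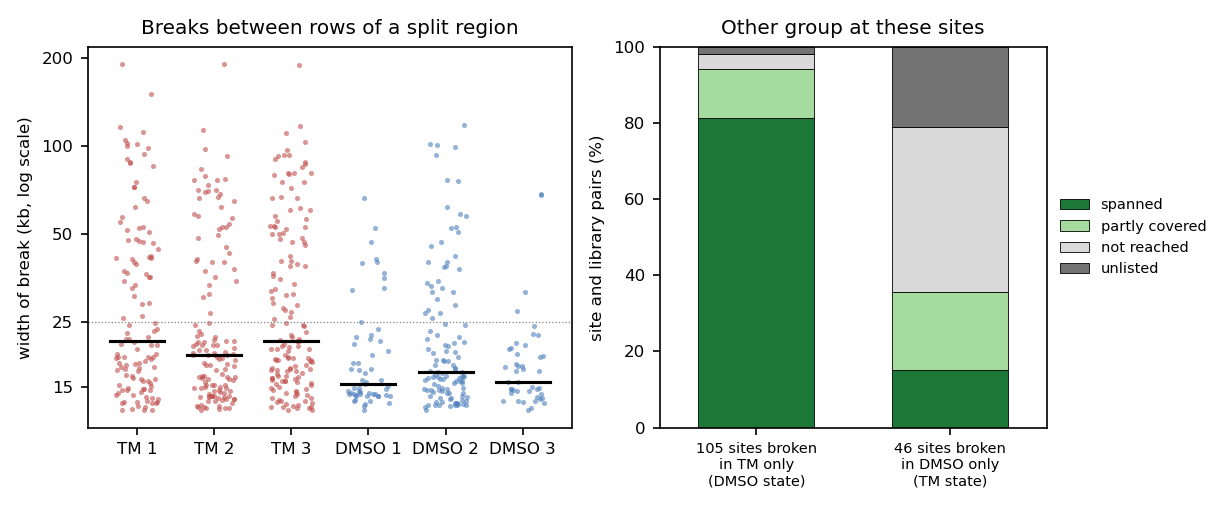
Left, the width of each break by library (kb, log scale; bars mark medians and the dotted line 25 kb); right, what the other group listed at sites broken in 1 group only, as a percentage of pairs of site and library. Medians were 19.4 to 21.7 kb in TM and 15.3 to 17.0 kb in DMSO, and DMSO rows spanned 81.3% of pairs at TM-only sites against 15.2% for TM rows at DMSO-only sites.

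A break often fell between genes or on one. At 150 of the 245 sites, a library linked different genes to the row on each side, and in 127 of the 199 regions a library linked 2 or more genes at once. A gene was linked in all 3 TM libraries and no DMSO library in 20 regions, and the reverse held in 13. When a row is cut, its midpoint moves, so the nearest promoter can change with no change of signal. Among regions listed in all 6 libraries the counts were 19 and 7, against 7 and 7 of 495 that were not split.

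A linked start site lay inside 25 sites, but a site joins breaks that need not coincide, so a start can be in the break of some of its libraries only. The starts of WNT2, KANK1, NPY4R and ANXA2R lay in a break of all 3 TM libraries and of no DMSO library. The start of SCIRT lay in a break of TM 3 alone. WNT2, a secreted Wnt ligand, had its start in a TM break stretch of 87.7 kb that every DMSO library spanned. DMSO rows therefore ran across the WNT2 start, at its deposited position, and TM rows did not. That region (chromosome 7, 116756398 to 117156366) had 3 rows in each TM library and 1, 2 and 1 in DMSO, and held 21, 21 and 15 peaks in TM against 88, 93 and 101 in DMSO. Peak number there fell by 1.53 ± 0.15 (log2, limma, adjusted p = 0.000522) and total signal by 1.17 ± 0.11 (adjusted p = 0.0011). ST7-OT3 and ASZ1 were linked in TM only. ARID5B, a DNA-binding cofactor, had its start in the 93.0 kb break of DMSO 2 and in no break of the other 5 libraries.

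The most divided region, ELL2, spanned 664 kb (chromosome 5, 95022494 to 95686977) from RHOBTB3 to PCSK1. ELL2 is a transcription elongation factor and PCSK1 a prohormone convertase. The region's name comes from its strongest row, in DMSO 1, and no row of another library there was linked to ELL2. TM 1, 2 and 3 listed 5, 6 and 6 rows over 303, 403 and 365 kb, against 2, 4 and 4 rows over 608, 567 and 597 kb in DMSO. DMSO 1 stood apart with 1 row of 569 kb that held 124 of its 133 peaks. PCSK1 was linked in the 3 DMSO libraries alone. Listed rows ended at 577, 575 and 574 kb from the region's start in TM 1, 2 and 3, against 664, 659 and 659 kb in DMSO. Total signal was 204634, 423664 and 276155 tags in TM and 442426, 326648 and 457718 in DMSO, and it fell by 0.48 ± 0.07 (log2, limma, adjusted p = 0.00323).

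EGFR, ARID5B, WNT5A, DDAH1 and LINC02398 also had many pieces and were split in both groups. EGFR, the epidermal growth factor receptor, had 4, 2 and 4 rows in TM against 2, 3 and 2 in DMSO, and its 92.7 kb site held a break of each of the 6 libraries, with no stretch common to all. ARID5B had 4 rows in each TM library and 2, 3 and 2 in DMSO. WNT5A, a non-canonical Wnt ligand, had 3 rows in each TM library and 2 in each DMSO library, with a common TM break of 68.2 kb that DMSO spanned. DDAH1, which degrades asymmetric dimethylarginine, had 3, 4 and 3 rows in TM and 2, 3 and 2 in DMSO, and CCN1, a matrix-associated signalling protein, was linked in the 3 TM libraries alone. LINC02398 had 3 rows in each TM library and 2, 3 and 2 in DMSO. ATXN10, among the strongest regions below, was split in TM libraries only, with 2, 2 and 1 rows in TM and 1 in each DMSO library.

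Among the 199, the 5 with the highest mean signal were ELL2, WNT5A, LINC02398, EGFR and ATXN10. The median over regions of the mean signal was 85330 tags for the 199 and 30477 for those not split. Among regions listed in all 6 libraries it was 89952 and 41616 tags. The signal is summed over the rows of a region, so it is not independent of the rule.

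Density, total signal and peak number were compared by limma, a linear model across all regions. The rule used none of these values, but they are not independent of it, because each is taken over listed rows only. A break leaves its length, and any signal and peaks inside it, out of these values. The fit covered the 670 regions that all 6 libraries listed, 175 of the 199 among them, and values were on the log2 scale. Each library was centred on its median over the 670, because the deposited median density was 0.38 higher in TM and the median peak number was lower by 0.80, so that -0.80 (log2, TM minus DMSO) was the shift removed. Changes below are therefore relative to the median region. The other 24 of the 199 were left out because a library did not list them, mostly TM 1 with 20.

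For density, 13 of the 175 were higher in TM and 15 lower (adjusted p under 0.05), 28 in all, against 6.72% higher, 10.6% lower and 17.3% in either direction over all 670 regions. These shares of 7.43% and 8.57% were near the background. On the deposited scale, without centring, 39 of the 175 were higher and 0 lower, against 133 and 1 of the 670. Without TM 3, DMSO 1, DMSO 2 or DMSO 3 the 28 calls became 11, 6, 10 and 7. Deposited densities did not overlap between the groups, with TM higher, in 82 of the 175, against 38.8% of the 670, and with TM lower in 0, against 0.597%.

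PAWR, a pro-apoptotic regulator, had the largest rise in density (chromosome 12, 79927787 to 80100492). Its density was 1.38, 2.74 and 1.85 tags per bp in TM 1, 2 and 3, against 0.682, 0.573 and 0.626 in DMSO, without overlap. The change was 1.23 ± 0.15 (log2, limma, adjusted p = 0.00273). The listed length was 42.0, 38.9 and 39.2 kb in TM against 135, 103 and 160 kb in DMSO, and total signal changed by -0.09 ± 0.10 (adjusted p = 0.54). A break of 114 to 117 kb lay between its 2 rows in each TM library, DMSO 1 and DMSO 2 were also split, and with the breaks counted into the length the density change was -0.39 (adjusted p = 0.144).

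PIEZO2, a mechanically gated channel, ZNF217, a zinc finger oncogene, ASB7, a ubiquitin ligase subunit, and LACTB2-AS1 were the others of the 5 highest changes among the 28 that passed. PIEZO2 had 1.11, 2.45 and 2.64 tags per bp in TM and 0.710, 0.751 and 0.695 in DMSO, a change of 1.04 ± 0.24 (log2, limma, adjusted p = 0.0225). ZNF217 had 1.56, 3.29 and 1.94 in TM and 0.979, 0.749 and 1.16 in DMSO, a change of 0.80 ± 0.19 (adjusted p = 0.022). None of these overlapped between groups, and in all 4 the listed length was shorter in every TM library than in any DMSO library. ASB7 changed by 0.71 ± 0.17 (adjusted p = 0.0225) and LACTB2-AS1 by 0.70 ± 0.13 (adjusted p = 0.00943). PIEZO2 and ASB7 lost the call without TM 3, DMSO 1 or DMSO 3 (adjusted p of 0.0637 to 0.0780 and 0.0807 to 0.0920), ZNF217 without TM 3, DMSO 1 or DMSO 2 (0.0602 to 0.0779), and LACTB2-AS1 without DMSO 1 (0.0544).

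STK17A, an apoptosis-related kinase and one of the 17 divided in TM, had the largest fall in density (chromosome 7, 43593072 to 43715046). Its density was 0.438, 0.628 and 0.503 tags per bp in TM 1, 2 and 3, against 0.762, 0.608 and 0.705 in DMSO, and only TM 2 lay above the lowest DMSO library. The centred change was -0.79 ± 0.08 (log2, limma, adjusted p = 0.00153). Its length was near equal, 105, 108 and 88.2 kb in TM against 103, 103 and 118 kb in DMSO, and total signal fell by 0.51 ± 0.11 (adjusted p = 0.0146). RIPOR3, C6orf89, GRAMD2B and STEAP4, a metalloreductase, followed with -0.62, -0.54, -0.47 and -0.46. All 5 kept a negative sign without centring, from -0.41 at STK17A to -0.07 at STEAP4, but none of them then passed the threshold. With centring, GRAMD2B lost the call without TM 3, DMSO 1 or DMSO 3 (adjusted p of 0.0519 to 0.0730), and STEAP4 without TM 1, TM 3, DMSO 1 or DMSO 2 (0.0511 to 0.117).

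**Figure D4:**
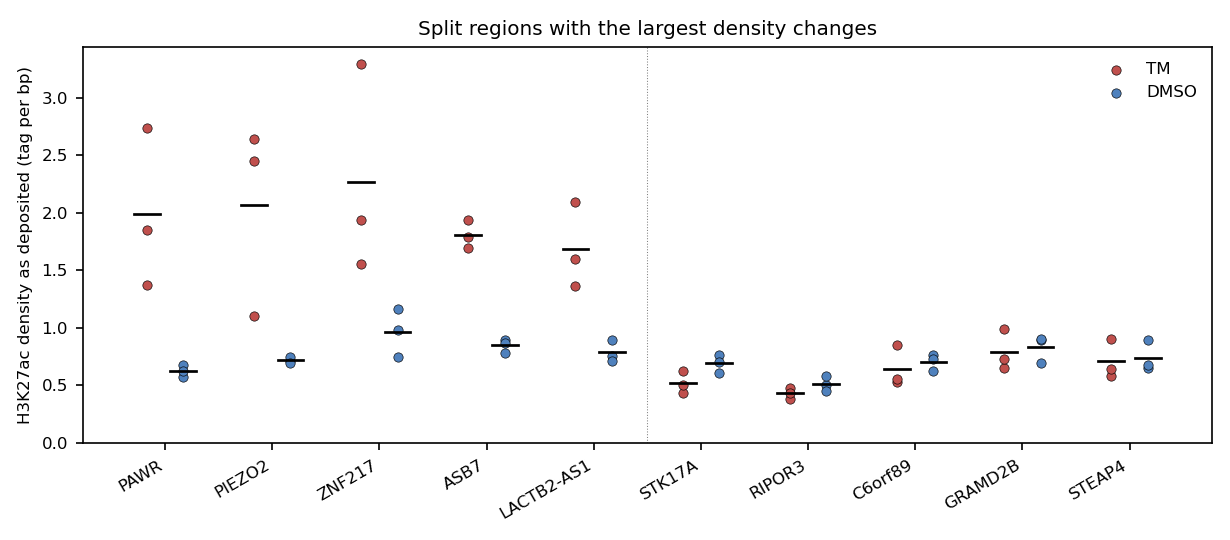
H3K27ac density as deposited (tags per bp) in the 5 regions with the highest and the 5 with the lowest centred change among those called; each point is a library, TM left of DMSO, and bars mark means. The 5 left regions do not overlap between groups, and the 5 right regions overlap as deposited, their calls resting on the centred scale.

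Total signal differed more often. Of the 175, 27 were higher in TM and 41 lower, against 18.7% higher and 13.7% lower over the 670, which is 15.4% and 23.4% of the 175. In either direction 68 were called (38.9%), against 32.4%. As deposited, the groups did not overlap in 15 of the 175 with TM higher and in 18 with TM lower, against 12.5% and 6.12% of the 670. The sum covers listed rows only, so signal inside a break or in a piece under the threshold is not in it. Centred on the regions that were not split, the counts were 20 higher and 51 lower of the 175, and 92 and 120 of the 670. Without centring they were 2 higher and 14 lower of the 175, and 7 and 22 of the 670. Without TM 3, DMSO 1 or DMSO 3 the 68 calls became 39, 45 and 36.

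IL7R, the interleukin 7 receptor, showed the strongest loss of peaks (chromosome 5, 35607548 to 35929547). It had 5, 8 and 5 peaks in TM 1, 2 and 3, against 48, 41 and 55 in DMSO, and 51.1, 54.0 and 57.6 kb of rows against 322, 256 and 321 kb. Peak number fell by 2.23 ± 0.23 (log2, limma, adjusted p = 0.000522) and total signal by 1.64 ± 0.10 (adjusted p = 0.000169), while its density change of 0.43 ± 0.19 did not pass (adjusted p = 0.138). LINC01010, by the stress-responsive kinase gene SGK1, had 13, 20 and 16 peaks in TM against 99, 89 and 110 in DMSO, and SGK1 was linked in TM libraries only. CFTR, the chloride channel of epithelia, fell in all 3 measures on the centred scale, by 0.38 in density, 1.65 in total signal and 1.03 in peak number (log2). Its deposited densities overlapped between the groups, and centring had removed a shift of 0.38 in density. IL7R, LINC01010, CFTR and the regions in the next sentences were chosen after their values were seen.

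Rises in total signal were led by TENM2, MIR1208, LURAP1L-AS1 and LSM4. TENM2, a cell adhesion protein, had 65213, 123412 and 53103 tags in TM 1, 2 and 3, against 33632, 21288.5 and 35873 in DMSO, without overlap, a change of 1.36 ± 0.18 (log2, limma, adjusted p = 0.00216). FTH1, the ferritin heavy chain, was higher in all 3 measures on the centred scale, by 0.40 in density, 0.97 in total signal and 0.89 in peak number. Its deposited peak numbers overlapped between the groups, and centring had removed a shift of -0.80 in peak number. In FTH1 the 2 rows of each TM library and the 2, 2 and 1 rows in DMSO covered near the same length, 96.7, 95.8 and 93.7 kb in TM against 92.1, 73.8 and 88.7 kb in DMSO.

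Peak number was higher in TM in 4 of the 175 and lower in 16, against 1.64% and 4.48% over the 670. In either direction 20 were called (11.4%), against 6.12%. On the deposited scale 122 of the 175 had fewer peaks in every TM library than in any DMSO library, against 54.3% of the 670. Without centring 0 were higher and 109 lower of the 175, and 1 and 271 of the 670. Without TM 2 the 20 calls became 31, and without TM 3, DMSO 1, DMSO 2 or DMSO 3 they became 12, 9, 10 and 6.

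**Figure D5:**
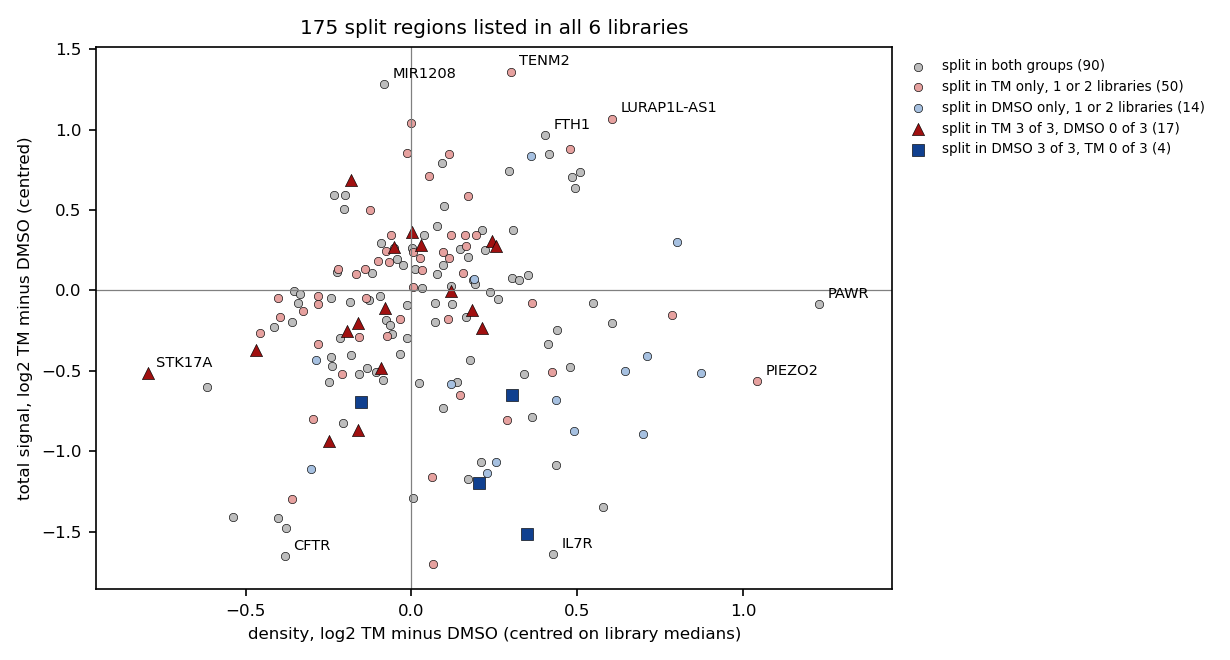
Centred log2 changes (TM minus DMSO) in density and in total signal for the 175 regions listed in all 6 libraries, by the libraries that split them. The 17 regions split in TM only run from -0.79 to 0.26 in density and from -0.93 to 0.69 in total signal, and the 4 split in DMSO only lie at -0.65 or lower in total signal.

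By form, the 17 regions that only TM divided had a median change of -0.08 in density, -0.12 in total signal and -0.02 in peak number, against -0.03, 0.02 and 0.10 over all 670. Of the 17, 2 fell in density (STK17A and GRAMD2B) and 0 rose. In total signal 7 fell and 2 rose (SRGAP1 and SCIRT). In centred peak number SEMA3C fell and SCIRT rose, and the deposited peak numbers of SCIRT overlapped between the groups. The 4 that only DMSO divided had medians of 0.25, -0.95 and -1.36. The listed length of the 17 changed by a median of -0.42 (log2), and that of the 4 by -1.57, against -0.25 over all 670.

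The share of listed pathway genes linked to these regions differed between lists, in small numbers and with no test. Of 7 unfolded protein response genes linked anywhere, 0 were linked here, against 386 of 2002 linked genes in all (19.3%). ATF4, the amino acid response factor, has 5 linked targets in the list used, and 1 was linked here, GDF15, a stress-induced cytokine, in the LSM4 region and in TM 3 alone. Of 12 adhesion, matrix and epithelial-mesenchymal transition genes, CCN1, ITGB1, SMAD3 and TGFB2 were linked here. Of 6 Wnt and Hippo genes, TEAD1 and WNT5A were, of 13 cell cycle genes GADD45A and KLF5, and of 7 growth factor signalling genes DUSP1, EGFR and PTPN1. Inflammatory signalling gave STAT3 of 11, lipid metabolism LPIN2 of 6, hepatocyte identity LIPC of 6 and other liver cell types KRT7 of 3.

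These linked regions had no common direction. The LSM4 region with GDF15 rose in total signal by 1.04, and the ERGIC1 region with DUSP1, a phosphatase that shuts off MAP kinases, rose by 0.85 (limma, adjusted p = 0.00259 and 0.011). The KRT7 region rose by 0.86 (adjusted p = 0.00422), whereas LPIN2 fell by 1.20. One KLF5 region with 3, 2 and 3 rows in TM and 1, 2 and 1 in DMSO fell by 0.56 (adjusted p = 0.00401), and a second had a change of 0.20 (adjusted p = 0.652). STAT3 fell in centred density by 0.40 (limma, adjusted p = 0.0309), but its deposited densities overlapped between the groups. Its total signal change was -0.17 (limma, adjusted p = 0.566). PTPN1 was listed in no TM library, and the LIPC region, named for a hepatic lipase, in TM 1 alone of the TM libraries, so neither was tested.

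At the edge of the rule, the smallest overlaps that held a kept region together were 1159 bp at EXOC3-AS1, 1550 bp at LINC01447 and 2252 bp at PSG5. The nearest neighbours that stayed apart were 4025 bp apart at LINC01122, 5505 bp at MYO16 and MYO16-AS1, and 6001 bp at LINC02101.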

How the data were processed

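H3K27ac ChIP-seq SE lists of 6 HepG2 libraries (TM and DMSO, 3 each, by the labelled treatment; numbers from the titles) were used. The deposited signal, called tag, is a sum over a row made by the authors: it equals a density in steps of 0.0001 per bp times the row length, and scaling by library size or input is not stated. Distances and positions in bp are other deposited columns. Row names give the MACS peaks stitched in each library, replicates were not pooled, and the submitters' processing notes list CASAVA 1.4, mm9 and hg38 without saying what each was for. For caller settings and stitching distance, nothing is stated in the labels or the study's methods. Only rows over a library's own threshold are listed.

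Rows were merged at 1 bp of overlap. Names were updated by Entrez ID with RefSeq GRCh38.p14, which matched 7434 of 7472 rows, and 11 had no gene. Of genes linked in 3 TM and 0 DMSO libraries, 13 of 22 had a RefSeq promoter, of the reverse 10 of 13, and of genes with a start site in a break site 25 of 25. A linked start site was placed from the row's midpoint and deposited distance. log2 density, total signal and peak number were fitted with limma 3.58.1 (trend, R 4.3.3), centred on library medians, with Benjamini-Hochberg adjusted p over the 670 shared regions; an exact permutation test of 3 against 3 libraries cannot go below 0.1 and was not used. The fit was tested on simulated data. Python 3.11.15, pandas 2.3.3, numpy 2.4.6, scipy 1.17.1 and matplotlib 3.10.9 were used.

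The members and lists were chosen with earlier results of these data known. Regions were named by rule: up to 12 split in 1 group only with the highest signal (some of those named fall outside this limit, and 1 region is not reported here), the 6 with most rows, the 5 highest and lowest density changes, the 5 strongest, the 3 widest breaks, those linked to a listed gene and the edges of the rule. Same-numbered TM and DMSO libraries did not deviate together, with correlations from -0.21 to 0.02, so numbers were not taken as pairs. Differently numbered libraries gave -0.21 to 0.23. No row was identical between 2 libraries. The signal gives no counts, so no counting interval can be given.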

Additional observations from a re-analysis of the deposited data

How the results depend on the processing

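The lead of TM in split regions kept its direction in every alternative run, with a difference of 38.8 to 66.8 regions on leaving out 1 library, 32.3 with breaks under 25 kb closed and 10.3 with 3 or more rows required. The last setting left 31 regions, 4 of them in TM only and 0 in DMSO only. Leaving out 1 library gave 165 to 186 regions, 18 to 30 in TM only and 3 to 4 in DMSO only. Counts for 1 group only are easier to reach there, because fewer libraries have to meet the rule. Dropping rows under the highest threshold gave 8 and 2, and closing breaks under 25 kb gave 11 and 0. With the same number of strongest rows in every library, chosen after seeing the data, 179 regions were split, with 19 and 3.

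Counts of called regions on leaving out 1 library ran from 45 to 142 (density, all 670) and 6 to 32 (the 175), 115 to 246 and 36 to 76 for total signal, and 9 to 62 and 6 to 31 for peak number. Without centring, total signal gave 29 and 16 and peak number 272 and 109. With a replicate block, on numbers that were not shown to pair the libraries, density gave 95 and 18, total signal 135 and 46, and peak number 13 and 9. With breaks counted into the length, the density change reversed at PAWR (-0.39), KANK1 (-0.75), WNT5A (-0.21) and DDAH1 (-0.59). The cause of these moves was not tested, but fewer libraries leave fewer degrees of freedom. Over the named density changes and alternatives, 419 results and settings kept their call state, 32 lost the call, 13 gained one and 4 reversed. A change of sign was counted as reversed only where either fit passed the threshold. The 419 can therefore hold changes of sign in regions that passed in neither fit. Depth is unknown, so what it limits cannot be given, and a region under a library's threshold has no value there.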

Other observations

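Gene family clusters were among the split regions, and they were chosen after their values were seen. A pair of regions on chromosome 19 lay in the pregnancy-specific glycoprotein genes. PSG5 had 2 rows in each of the 6 libraries. PSG1 had 2, 3 and 3 rows in TM and 2 in each DMSO library, with PSG6 and PSG8-AS1 linked in TM only and PSG1 in DMSO only. These genes are near-identical copies, so their reads and links are uncertain. The KRT7 region of the type II keratins had 2, 1 and 2 rows in TM, linked to KRT80, KRT81, KRT86 and KRT7, and 1 row in each DMSO library. The KRT18 and KRT8 region, the keratin pair of hepatocytes and other simple epithelia, was split in TM 2 alone. The IFIT2 region of interferon-induced genes had 2, 2 and 1 rows in TM and 2 in each DMSO library, with IFIT3 linked in the 3 DMSO libraries alone, and its total signal rose by 0.79 ± 0.08 (log2, limma, adjusted p = 0.00129).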
